A study of Mus musculus with 12 samples.

Results

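A set of 10 RNA-binding proteins that guide splicing and mRNA stability in muscle cells were followed through the depletion of KEAP1 and CCNF in C2C12 cells, a line of mouse myoblasts. The 10 genes were Rbm24, Rbm38, Mbnl1, Mbnl2, Mbnl3, Celf1, Celf2, Rbfox2, Ptbp1 and Elavl1, out of 54532 genes in the table. They were found by their gene symbols, and all 10 passed the filter on low counts that left 15122 genes for testing. The set was chosen on these data, because Rbm24 was among the largest falls after siKEAP1, so the values of siKEAP1 against siCONTROL are given as a description without a test. The cells, grown in medium with 5% FBS by the labels, received 30 nM siRNA for 48 h. The labels and the study's methods differ on the serum content, and whether the dose is the total in the double depletion is not given in the sources used here. The groups were siCONTROL (a control siRNA), siKEAP1, siCCNF and siKEAP1/siCCNF (both siRNAs), with 3 biological replicates each and 12 libraries of poly(A)-selected RNA in all. KEAP1 is the adaptor by which a CUL3 ubiquitin ligase keeps the oxidative stress factor NRF2 low, and CCNF (cyclin F) is the adaptor of an SCF ligase that degrades E2F factors. All groups are the same cell line, and which of the study's Ccnf siRNAs these cells received is not given in the sources used here.

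RNA-binding proteins of these families decide which exons of a muscle transcript are kept and how long the transcript lives. As muscle matures, rising MBNL and falling CELF activity is known to move many exons from their fetal to their adult form, RBFOX proteins help muscle exons to be included, and PTBP1 holds such exons back in undifferentiated cells. RBM24 and RBM38 are close relatives that bind transcripts of the myogenic program, and ELAVL1 (HuR) is known to stabilise AU-rich transcripts in myoblasts. A count per gene shows how much RNA of a regulator is present, and not which isoform it is, how much protein is made or how any exon is spliced. In bulk RNA, fewer cells that express a gene and less of its RNA per cell cannot be told apart.

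The libraries held 18464209 to 37743198 counts assigned to genes. Levels in CPM are counts scaled to the library total multiplied by its TMM factor, by which edgeR adjusts for differences between libraries. Keap1 lay at 12.3, 12.8 and 12.7 CPM in the siKEAP1 libraries. It lay at 22.2, 27.0 and 23.1 CPM in the siKEAP1/siCCNF libraries, against 84.3 to 90 CPM in siCONTROL. Ccnf lay at 19.7 to 21.3 CPM after siCCNF and at 23.7 to 25.6 CPM after siKEAP1/siCCNF, against 77.7 to 85.5 CPM in siCONTROL, so each targeted gene was low where the labels say it was depleted. Keap1 was therefore higher in the double depletion than after siKEAP1 alone (log2 difference 0.93, SE 0.084, edgeR's adjusted p = 1.07e-06), and Ccnf was also lower after siKEAP1 alone than in siCONTROL (-0.45, SE 0.073, edgeR's adjusted p = 0.000258). All 7 myoblast and satellite cell markers were present in every library, with Myod1 at 67.1 CPM or more and Pax7 at 64.2 CPM or more. Myod1 averaged 227 CPM in siCONTROL, 68.6 CPM after siKEAP1, 75.9 CPM after siCCNF and 80.2 CPM after siKEAP1/siCCNF. The means of Des, Cdh15 and Chrna1 were also lower in each depleted group than in siCONTROL. Group means of Myf5, Itga7 and Pax7 are not reported here. The part of these differences in the results below was not tested. Of 9 markers of other cell types, Ptprc, Adgre1, Epcam, Adipoq and Plin1 had at most 4 counts in any library. The summed level of these 9 markers was 1.03 to 2.17 CPM in siCONTROL, 6.87 to 11.6 CPM after siKEAP1, 2.37 to 3.58 CPM after siCCNF and 2.54 to 3.82 CPM after siKEAP1/siCCNF, and Cd68, a macrophage marker, reached 9.97 CPM at its highest. Each other marker of the 9 stayed at or below the 1.07 CPM that Cdh5 reached. This sum, which at its highest was mostly Cd68, was higher after siKEAP1 than in any other group. Its part in the results below was not tested. The siCONTROL replicate 1 and siKEAP1/siCCNF replicate 3 stood apart from the other libraries of their groups. Across the 15122 genes, their deviations from the group mean fell with gene length (Pearson's r = -0.305 and -0.276), while r was between -0.0944 and 0.206 in the other 10 libraries. This touches the regulators directly, since 7 of the 10 have a gene length at or above the 85.4th percentile of the genes tested, up to 25884 bases for Celf2.

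Scaled by gene length, the regulators covered a wide range of levels in control myoblasts. The order of the genes depends on this scaling. By mean CPM in siCONTROL, Mbnl1 (318) stood above Ptbp1 (260), and Celf2 (143.5) above Elavl1 (100.2). In siCONTROL, Rbfox2 (55.9 ± 5.40 FPKM, mean ± SD, n = 3) and Ptbp1 (54.5 ± 3.94 FPKM) were the highest by FPKM, and their libraries overlapped. Celf1 followed at 19.4 ± 0.734 FPKM, Mbnl1 at 16.9 ± 2.47 FPKM and Mbnl2 at 13.3 ± 2.43 FPKM, and each of these overlapped with its neighbour in the order. Elavl1 was next at 9.59 ± 0.0320 FPKM, apart from both neighbours. Rbm24 (5.85 ± 2.16 FPKM) and Celf2 (5.50 ± 0.471 FPKM) overlapped, and Rbm38 (2.84 ± 0.882 FPKM) and Mbnl3 (1.41 ± 0.299 FPKM) came last without overlap. The place of Rbm24 was not kept in the depleted cells. It was last in the other 3 groups, at 0.0961 ± 0.0770 FPKM with siKEAP1, 0.892 ± 0.312 FPKM with siCCNF, where it overlapped with Mbnl3 (1.07 ± 0.231 FPKM), and 0.344 ± 0.0362 FPKM with both siRNAs. Mbnl2 stood above Mbnl1 with siKEAP1 at 18.9 ± 0.330 FPKM, and below Elavl1 after siCCNF (6.54 ± 0.848 FPKM) and siKEAP1/siCCNF (7.40 ± 1.21 FPKM).

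**Figure D1:**
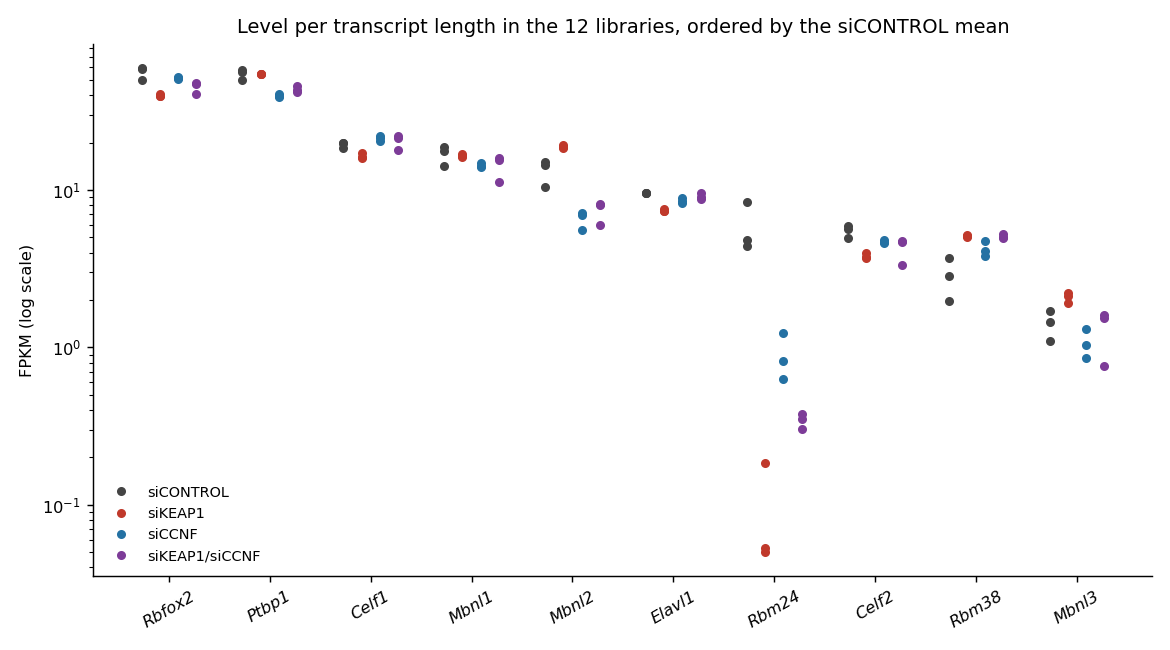
FPKM (log axis) of the 10 regulators in each of the 12 libraries, with a point for each library, coloured by group, and the genes ordered by their siCONTROL mean. Rbm24 is the lowest point cloud in siKEAP1 and siKEAP1/siCCNF, while Rbfox2 and Ptbp1 stay at the top of all groups.

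Rbm24, an RNA-binding protein needed for skeletal and heart muscle splicing, had the widest range of group means among the 10 regulators as a ratio. It lay at 29.3, 15.5 and 16.9 CPM in the siCONTROL libraries (653, 286 and 351 counts). After siKEAP1 it lay at 0.186, 0.648 and 0.175 CPM (4, 16 and 4 counts), after siCCNF at 4.33, 2.22 and 2.87 CPM (152, 57 and 107 counts), and after siKEAP1/siCCNF at 1.07, 1.23 and 1.32 CPM (27, 40 and 30 counts). None of the groups overlapped: siCONTROL was the highest, siCCNF came next, the double depletion was below it, and siKEAP1 was the lowest. Expressed as a share of the siCONTROL mean, 1.64% remained with siKEAP1, 15.3% with siCCNF and 5.87% with both siRNAs. The siKEAP1 difference that chose the set was -5.88 on the log2 scale (SE 0.42). Among genes with a mean of at least 1 log2 CPM whose siKEAP1 and siCONTROL libraries did not overlap, it lay between Myog (-7.99), the myogenic factor that opens terminal differentiation, and C1qtnf3 (-4.74). The size of the Rbm24 difference depended on the method. It was -4.93 with limma on log2(FPKM + 0.1), -2.6 with log2(FPKM + 1) and -6.8 without siKEAP1 replicate 2.

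The comparison of siKEAP1/siCCNF with siCCNF shares no library with that contrast, and it asks what the siKEAP1 siRNA did in cells that were also depleted of CCNF. There Rbm24 fell by 1.39 on the log2 scale (SE 0.36, adjusted p = 0.0414 by the quasi-likelihood test of edgeR, with the Benjamini-Hochberg correction), and was lower in 3 of 3 siKEAP1/siCCNF libraries than in any siCCNF library. The call was close to the threshold. Its fit took the spread between replicates from all 12 libraries, those of siKEAP1 and siCONTROL included. With only the compared groups in the fit the call was kept. It was lost when siCCNF replicate 1 was left out (-1.09, edgeR's adjusted p = 0.181), and also without siKEAP1 replicate 1 or 3 (both 0.0532), siCCNF replicate 3 (0.089) or siKEAP1/siCCNF replicate 1, 2 or 3 (0.122, 0.124 and 0.0789). With limma on log2(FPKM + 0.1) the difference was -1.12 (adjusted p = 0.0678) and with a pseudocount of 1 it was -0.48 (adjusted p = 0.173). The other contrasts of Rbm24 share siCONTROL or siKEAP1 libraries with the choice of the gene and were not tested. They were -2.70 (SE 0.30) for siCCNF against siCONTROL, -4.09 (SE 0.34) for siKEAP1/siCCNF against siCONTROL, and 1.79 (SE 0.53) for siKEAP1/siCCNF against siKEAP1, where the value was 2.71 without siKEAP1 replicate 2. With limma on log2(FPKM + 1) these values were -1.82, -2.31 and 0.296 in the same order.

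Rbm38, the paralog of Rbm24 and a target of p53 that binds the transcript of the cell-cycle inhibitor Cdkn1a, differed in the opposite direction. It lay at 10.8, 8.14 and 5.68 CPM in siCONTROL, at 14.8, 14.5 and 15 CPM after siKEAP1, at 11, 13.7 and 11.9 CPM after siCCNF, and at 15.2, 14.5 and 14.3 CPM after siKEAP1/siCCNF. Every depleted library was above every siCONTROL library, and siKEAP1 and siKEAP1/siCCNF overlapped. The rise after siCCNF was 0.57 on the log2 scale (SE 0.17, edgeR's adjusted p = 0.0139), and it lost the call without siCCNF replicate 2 (0.49, adjusted p = 0.0535) and with only the compared groups in the fit (0.57, 0.0576). With each library left out in turn it ranged from 0.36, without siCONTROL replicate 3, to 0.83. After siKEAP1/siCCNF the rise was 0.84 (SE 0.17, edgeR's adjusted p = 0.00135), and in siKEAP1 against siCONTROL the difference was 0.85 (SE 0.17, not tested). Against siCCNF the double depletion differed by 0.27 (SE 0.16, edgeR's adjusted p = 0.433), and against siKEAP1 by -0.011 (SE 0.16, edgeR's adjusted p = 0.963). Over the 12 libraries, log2 CPM of Rbm24 and Rbm38 had a Pearson's r of -0.795, given as a description because the libraries of a group share their treatment.

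**Figure D2:**
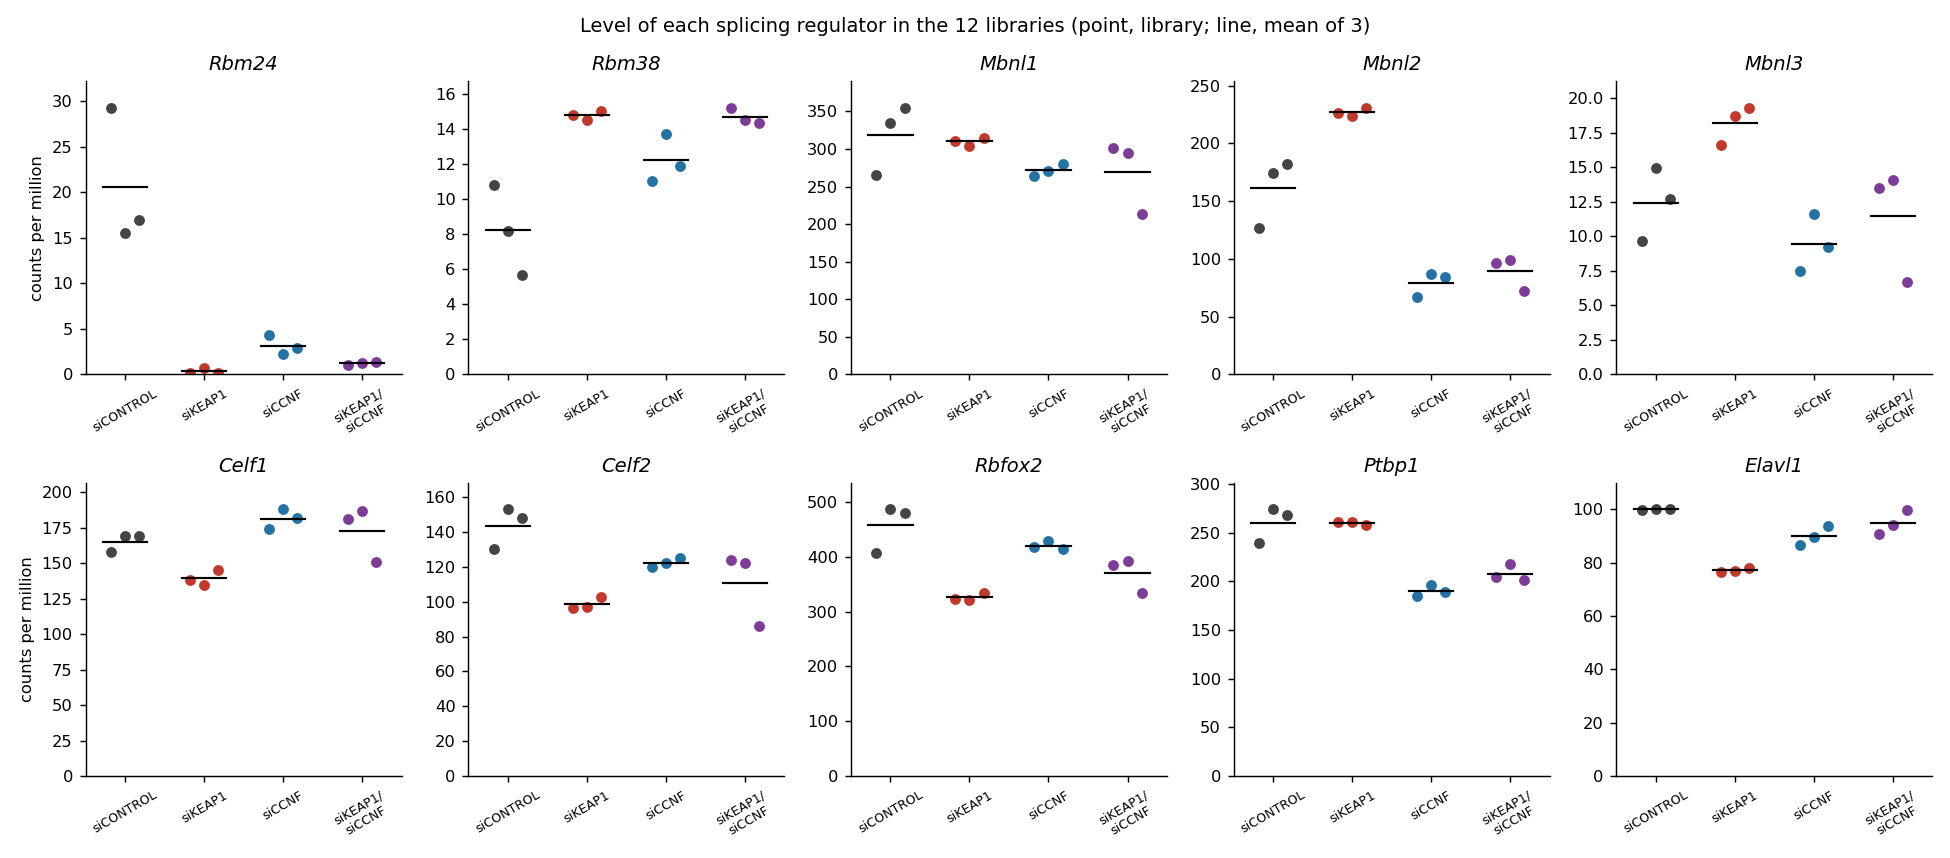
CPM of each regulator (vertical axes start at 0 and differ between panels) in the 4 groups, with a point for each library in the order of replicates 1 to 3 and a line for the mean of 3. Rbm24 drops from 15.5 or more in siCONTROL to 4.33 or less in every depleted library, Rbm38 is higher in every depleted library, and Mbnl2 is high after siKEAP1 and low in both groups with siCCNF.

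The promoters of these paralogs and of Mbnl2 are shown because their RNA differed between the groups in unlike ways. The windows, from 250 bases before to 50 after a RefSeq start on GRCm38.p6, were found for 9 of the 10 genes, with 14 windows in all. Rbfox2 was not matched. Capitals mark the E-box CACCTG (the reverse complement CAGGTG in Rbm24), which E proteins and myogenic factors can bind, and the core TGACNNNGC of the antioxidant response element (reverse complement in Rbm38 and Mbnl2), which NRF2 binds.
Rbm24, chr13:46418050-46418349, plus strand: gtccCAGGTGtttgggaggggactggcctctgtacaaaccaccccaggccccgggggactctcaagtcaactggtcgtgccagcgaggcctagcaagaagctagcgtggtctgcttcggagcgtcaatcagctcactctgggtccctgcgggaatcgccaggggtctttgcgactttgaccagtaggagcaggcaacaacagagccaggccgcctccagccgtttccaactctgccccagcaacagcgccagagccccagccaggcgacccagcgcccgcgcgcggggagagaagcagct
Rbm38, chr2:173021652-173021951, plus strand: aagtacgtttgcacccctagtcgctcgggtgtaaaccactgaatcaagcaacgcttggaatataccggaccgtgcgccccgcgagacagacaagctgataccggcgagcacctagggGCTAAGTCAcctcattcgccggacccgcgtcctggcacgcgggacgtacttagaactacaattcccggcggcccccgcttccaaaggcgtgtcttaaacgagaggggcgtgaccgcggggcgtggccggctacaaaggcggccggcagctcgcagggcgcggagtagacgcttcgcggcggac
Mbnl2, chr14:120275419-120275718, plus strand: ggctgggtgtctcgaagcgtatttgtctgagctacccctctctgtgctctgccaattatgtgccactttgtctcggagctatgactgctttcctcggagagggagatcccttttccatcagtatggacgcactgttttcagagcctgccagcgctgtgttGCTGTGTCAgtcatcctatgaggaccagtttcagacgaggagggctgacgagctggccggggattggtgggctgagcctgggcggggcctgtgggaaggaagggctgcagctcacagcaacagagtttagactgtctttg

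Both strands were searched in 32851 RefSeq windows of 300 bases. CACCTG stood in 20.2% of all windows and, among the regulators, in that of Rbm24 alone, beginning 246 bases before the start. CAGCTG, the E-box core favoured by MYOD1 and MYOG, stood in 16.3% of all windows and in that of Ptbp1, 39 bases after the start. TGACNNNGC stood in 12.4% of all windows and in those of Rbm38, 133 bases before the start, and Mbnl2, 90 bases before it. The E2F site TTTCCCGC stood in 1.07% of all windows and in 1 of those of Mbnl1, 220 bases before the start. No motif overlapped with another in these windows. Matches of letters describe the windows and are not evidence of binding, and the gene starts of the deposited table, 46418434 for Rbm24 and 173020498 for Rbm38, differ from these RefSeq starts.

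The muscleblind genes, whose proteins drive the adult pattern of splicing in muscle and are sequestered by expanded repeats in myotonic dystrophy, differed in their values. Mbnl2 lay at 127, 174 and 182 CPM in siCONTROL and at 226, 224 and 231 CPM after siKEAP1. It lay at 67.1, 86.5 and 83.9 CPM after siCCNF and at 96.7, 99.1 and 72.3 CPM after siKEAP1/siCCNF. The siKEAP1 libraries were above and both groups with siCCNF below every siCONTROL library, and the groups with siCCNF overlapped with each other. Mbnl2 fell by 1.02 on the log2 scale after siCCNF (SE 0.15, edgeR's adjusted p = 7.35e-05) and by 0.85 after siKEAP1/siCCNF (SE 0.15, edgeR's adjusted p = 0.000375). Against siKEAP1 alone, the double depletion had a log2 difference of -1.34 (SE 0.15, edgeR's adjusted p = 6.18e-06). All 3 falls kept their call in each of the 21 alternative settings, among them the omission of each library. In siKEAP1 against siCONTROL Mbnl2 was higher by 0.50 (SE 0.14, not tested), and in siKEAP1/siCCNF against siCCNF it differed by 0.18 (SE 0.14, edgeR's adjusted p = 0.586).

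Mbnl3, the family member tied to proliferating myoblasts, was far less abundant. It lay at 9.64, 14.9 and 12.7 CPM in siCONTROL, at 16.6, 18.7 and 19.3 CPM after siKEAP1, at 7.47, 11.6 and 9.21 CPM after siCCNF, and at 13.5, 14.1 and 6.68 CPM after siKEAP1/siCCNF. The siKEAP1 libraries were the highest of all 12, and the other groups overlapped. Mbnl3 fell by 0.66 in siKEAP1/siCCNF against siKEAP1 (SE 0.24, edgeR's adjusted p = 0.0359), a call lost when any 1 siKEAP1 replicate, siCCNF replicate 3 or siKEAP1/siCCNF replicate 3 (-0.39, adjusted p = 0.0992) was left out. Its difference after siCCNF was -0.40 (SE 0.25, edgeR's adjusted p = 0.203). Mbnl1, the main muscleblind gene of adult muscle, lay at 265, 334 and 355 CPM in siCONTROL, 311, 304 and 315 CPM after siKEAP1, 264, 271 and 280 CPM after siCCNF, and 301, 295 and 213 CPM after siKEAP1/siCCNF. The lowest value of each spread-out group came from the library that stood apart. By edgeR's quasi-likelihood test as described, no comparison of Mbnl1 passed, and its differences lay between -0.24 and -0.010 on the log2 scale. Without siCONTROL replicate 1 alone, Mbnl1 was called lower after siCCNF (-0.34, edgeR's adjusted p = 0.0218) and after siKEAP1/siCCNF (-0.36, edgeR's adjusted p = 0.0177), and without siKEAP1/siCCNF replicate 3 alone after siCCNF (-0.23, 0.048). With a gene length trend removed from all 12 libraries, it was called in the same comparisons (-0.33, edgeR's adjusted p = 0.000195, and -0.19, 0.0109), and with no filter on low counts in the second (-0.24, 0.046).

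The CELF genes encode antagonists of muscleblind proteins on many exons. Celf1 lay at 158, 169 and 169 CPM in siCONTROL, 138, 135 and 145 CPM after siKEAP1, 174, 188 and 182 CPM after siCCNF, and 181, 187 and 151 CPM after siKEAP1/siCCNF. Only the siKEAP1 group lay below every library of the other groups. Celf1 was higher in siKEAP1/siCCNF than in siKEAP1 by 0.31 on the log2 scale (SE 0.078, edgeR's adjusted p = 0.00438), while after siCCNF against siCONTROL it differed by 0.14 (SE 0.077, edgeR's adjusted p = 0.169). Celf2 lay at 130, 153 and 148 CPM in siCONTROL, 96.4, 97.1 and 103 CPM after siKEAP1, 120, 122 and 125 CPM after siCCNF, and 124, 122 and 86.1 CPM after siKEAP1/siCCNF. All depleted libraries were below the siCONTROL libraries, and the double depletion spread over the others through its replicate 3. Celf2 fell by 0.37 after siKEAP1/siCCNF (SE 0.12, edgeR's adjusted p = 0.0183), a call lost without siCONTROL replicate 2 (adjusted p = 0.0673) or 3 (0.0503) and with only the compared groups in the fit (0.0893). The difference was -0.22 without siKEAP1/siCCNF replicate 3. Its difference after siCCNF was -0.23 (SE 0.11, edgeR's adjusted p = 0.116), and it was called without siKEAP1/siCCNF replicate 3 (-0.23, edgeR's adjusted p = 0.0116), with only the compared groups in the fit (-0.23, 0.0444) and with the length trend removed (-0.38, 0.00321). With the trend removed, Celf2 was also higher in siKEAP1/siCCNF than in siKEAP1 (0.35, edgeR's adjusted p = 0.00553), as it was without siKEAP1/siCCNF replicate 3 (0.33, 0.00276). The median of all genes in this comparison was 0.093 with the trend removed. In siKEAP1 against siCONTROL, which was not tested, Celf1 differed by -0.24 (SE 0.078) and Celf2 by -0.54 (SE 0.12).

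Rbfox2, the RBFOX gene expressed in myoblasts, binds near muscle exons. It lay at 407, 487 and 481 CPM in siCONTROL, 323, 322 and 334 CPM after siKEAP1, 418, 429 and 415 CPM after siCCNF, and 385, 393 and 335 CPM after siKEAP1/siCCNF. The siKEAP1 libraries were the lowest of all, and the siKEAP1/siCCNF libraries were below every siCCNF library. It fell by 0.30 after siKEAP1/siCCNF against siCONTROL (SE 0.079, edgeR's adjusted p = 0.00663), a call lost when only the compared groups entered the fit (-0.30, adjusted p = 0.0555). With the length trend removed, Rbfox2 was also called higher in siKEAP1/siCCNF than in siKEAP1 (0.32, edgeR's adjusted p = 4.51e-05) and lower after siCCNF (-0.12, 0.0437), where the test as described gave 0.18 (0.0668) and -0.12 (0.216). The first was also called without siCONTROL replicate 1 (0.19, edgeR's adjusted p = 0.0178) or siKEAP1/siCCNF replicate 3 (0.26, 0.0129), and the second without siCONTROL replicate 1 (-0.20, 0.0249). With the trend removed, the median of all genes in the first comparison was 0.093. In siKEAP1/siCCNF against siCCNF its difference was -0.18 (SE 0.079, unadjusted p = 0.0381 by edgeR's quasi-likelihood test, adjusted p = 0.234), and it was -0.49 (SE 0.079, not tested) in siKEAP1 against siCONTROL. Its relatives Rbfox1 and Rbfox3 had at most 4 counts in any library.

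Ptbp1, the repressor of muscle and neuronal exons, lay at 239, 274 and 268 CPM in siCONTROL, 261, 261 and 258 CPM after siKEAP1, 185, 196 and 189 CPM after siCCNF, and 205, 218 and 201 CPM after siKEAP1/siCCNF. The groups with siCCNF were below every library without it. Ptbp1 fell by 0.45 after siCCNF (SE 0.064, edgeR's adjusted p = 6.43e-05), by 0.33 after siKEAP1/siCCNF (SE 0.064, 0.000999) and by 0.32 in siKEAP1/siCCNF against siKEAP1 (SE 0.064, 0.000885). All 3 falls kept their call in each of the 21 alternative settings. In siKEAP1 against siCONTROL its difference was -0.0029 (SE 0.063, not tested). Its relative Ptbp2, which replaces PTBP1 in developing neurons, was higher after siCCNF than in siCONTROL (88.2 against 59.9 CPM, log2 difference 0.56, edgeR's adjusted p = 3.5e-05). After siKEAP1, where Ptbp1 hardly differed, Ptbp2 was lower at 43.2 CPM (log2 difference -0.47, SE 0.074, not tested).

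Elavl1, which holds AU-rich transcripts stable, had closely agreeing libraries in siCONTROL. It lay at 99.9, 100 and 100 CPM in siCONTROL, 76.6, 76.8 and 78.1 CPM after siKEAP1, 86.6, 89.5 and 93.8 CPM after siCCNF, and 90.8, 94.0 and 99.8 CPM after siKEAP1/siCCNF. The siKEAP1 libraries were the lowest, and the groups with siCCNF lay between them and siCONTROL and overlapped with each other. The highest siKEAP1/siCCNF library (99.82 CPM) almost reached the lowest siCONTROL library (99.87 CPM). Elavl1 was higher in siKEAP1/siCCNF than in siKEAP1 by 0.30 on the log2 scale (SE 0.058, edgeR's adjusted p = 0.000762) in each alternative setting. After siCCNF it fell by 0.15 (SE 0.057, edgeR's adjusted p = 0.0399), a call that 8 of the 12 omissions of a library ended, with an adjusted p of up to 0.136. Removal of the length trend (-0.20, edgeR's adjusted p = 0.122), the absence of a filter (0.253) and a fit of the compared groups (0.0799) ended it too. In siKEAP1/siCCNF against siCONTROL Elavl1 differed by -0.078 (SE 0.057, edgeR's adjusted p = 0.295). In siKEAP1 against siCONTROL it differed by -0.38 (SE 0.058, not tested).

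**Figure D3:**
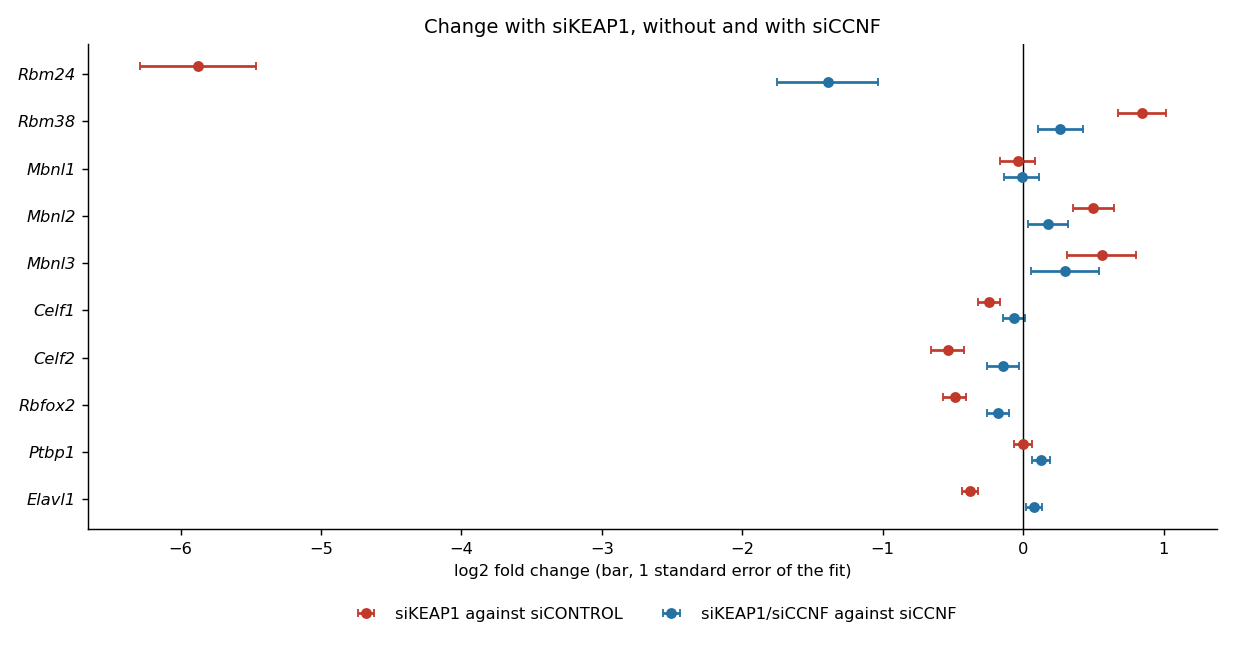
Log2 fold change (horizontal axis) of each regulator with siKEAP1, in red against siCONTROL and in blue in cells that also received siCCNF, with bars of 1 standard error of the edgeR fit. Rbm24 lies at -5.88 in red and -1.39 in blue, and all other blue points lie between -0.18 and 0.30. The red contrast chose the set and carries no test.

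In siKEAP1 against siCONTROL, the contrast behind the choice, the libraries did not overlap for 3 regulators that were higher (Rbm38, Mbnl2 and Mbnl3) and 5 that were lower (Rbm24, Celf1, Celf2, Rbfox2 and Elavl1). Over all genes tested, 25.8% were higher and 25.7% lower without overlap. Only Rbm24 differed by more than 2-fold, and the median of the 10 regulators was -0.14 against -0.012 for all genes. Nothing is read from these values, since they belong to the contrast that chose Rbm24.

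In siKEAP1/siCCNF against siCCNF, the only comparison that shares no library with the contrast behind the choice, none rose and 1 fell (Rbm24), where 3.00% of all genes tested rose and 2.19% fell. By edgeR's unadjusted p under 0.05, 0 were higher and 2 lower (Rbm24 and Rbfox2). DESeq2 called 0 higher and 1 lower, where it called 8.65% of all genes. The median of the 10 was 0.033 on the log2 scale, against 0.0032 for all genes. Without siCONTROL replicate 1 and siKEAP1/siCCNF replicate 3, a setting chosen after seeing the data, 4 of the 10 were called, where 14.1% of all genes were. Rbm24 fell by 1.46 (edgeR's adjusted p = 0.00636), and Mbnl2 (0.30, adjusted p = 0.0129), Mbnl3 (0.56, 0.0147) and Ptbp1 (0.15, 0.0242) rose.

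After siCCNF alone, 1 of the 9 regulators tested rose (Rbm38) and 3 fell (Mbnl2, Ptbp1 and Elavl1), where 22.5% of all genes rose and 25.5% fell. Of these only Mbnl2 passed 2-fold (0.493 of the siCONTROL level). The median of all 10 regulators, Rbm24 included, was -0.23, against 0.013 for all genes. Without the 2 libraries that stood apart, 8 of the 9 were called, against 54.6% of all genes, and Mbnl1 (-0.34, edgeR's adjusted p = 3.51e-06), Mbnl3 (-0.56, 0.0045), Celf2 (-0.30, 2.28e-05) and Rbfox2 (-0.20, 0.000346) were then lower as well. Leaving out siCCNF replicate 2 alone left 2 calls, where 41% of all genes were called. Leaving out siCONTROL replicate 1 or siKEAP1/siCCNF replicate 3 alone gave 6, where 46.9% and 49.3% of all genes were called.

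After siKEAP1/siCCNF against siCONTROL, 1 regulator of 9 rose (Rbm38) and 4 fell (Mbnl2, Celf2, Rbfox2 and Ptbp1), where 20.6% of all genes rose and 23.6% fell. In siKEAP1/siCCNF against siKEAP1, 2 of 9 rose (Celf1 and Elavl1) and 3 fell (Mbnl2, Mbnl3 and Ptbp1), where 24.1% of all genes rose and 26.9% fell. These comparisons share libraries with each other and with siKEAP1 against siCONTROL, so their values are set side by side only. Without the 2 libraries that stood apart, 6 and 7 of the 9 were called, against 48.8% and 58.8% of all genes. Celf2 (0.33, edgeR's adjusted p = 8.87e-06) and Rbfox2 (0.26, edgeR's adjusted p = 2.92e-05) were then also higher in siKEAP1/siCCNF than in siKEAP1.

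**Figure D4:**
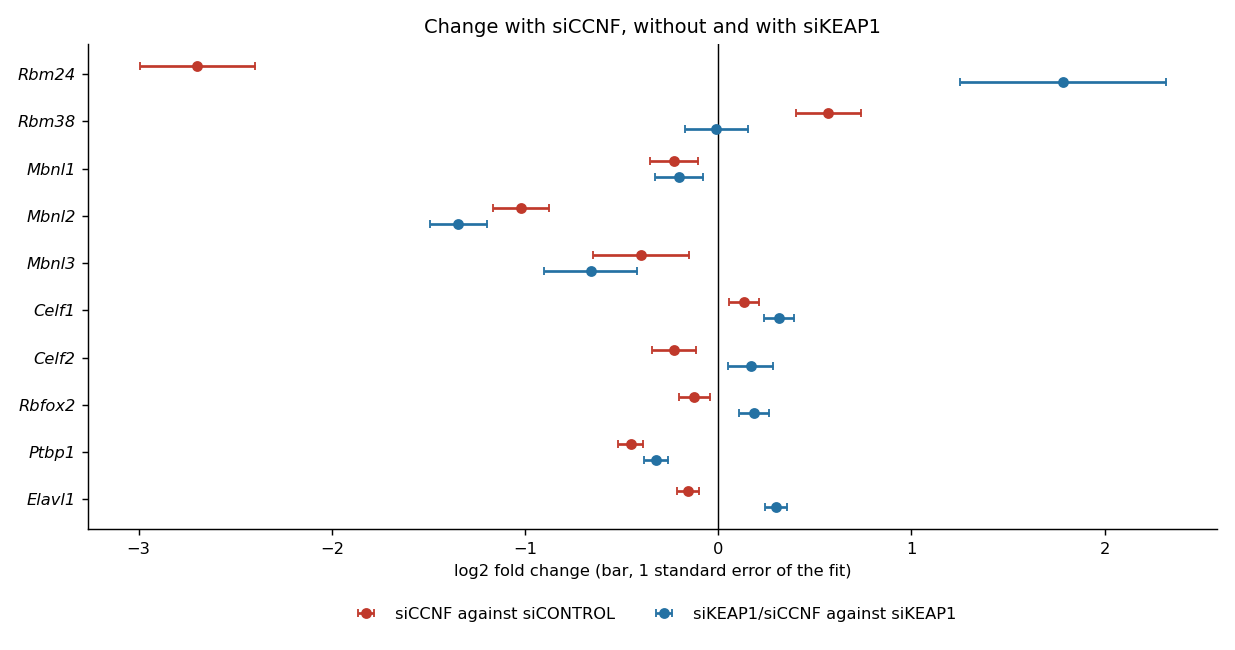
Log2 fold change (horizontal axis) of each regulator with siCCNF, in red against siCONTROL and in blue in cells that also received siKEAP1, with bars of 1 standard error of the edgeR fit. Mbnl2 lies at -1.02 and -1.34 and Ptbp1 at -0.45 and -0.32, while Rbm24 lies at -2.70 in red and 1.79 in blue and Elavl1 at -0.15 and 0.30.

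Among 11824 genes tested with a mean of at least 1 log2 CPM, those whose log2 CPM was most correlated with Rbm24 over the 12 libraries were Acta1 (Pearson's r = 0.981), the skeletal muscle actin, Spats2l (0.981), Pknox1 (0.976), a homeodomain factor, Smarce1 (0.975), a subunit of the SWI/SNF chromatin remodeller, and Fgfr4 (0.971), a growth factor receptor of muscle progenitors. These correlations describe 12 libraries that share treatments in groups of 3. Acta1 lay at 10.8 ± 4.12 CPM in siCONTROL (mean ± SD, n = 3), 1.23 ± 0.384 CPM after siKEAP1, 4.12 ± 0.670 CPM after siCCNF and 3.02 ± 0.475 CPM after siKEAP1/siCCNF. Fgfr4 lay at 140 ± 22.9, 11.7 ± 1.63, 34.2 ± 5.00 and 25.3 ± 3.78 CPM in the same order. Pknox1 kept the order of the groups over a far smaller range, from 56.5 ± 1.01 CPM in siCONTROL to 37.2 ± 0.756 CPM after siKEAP1. All 5 genes were highest in replicate 1 among the siCONTROL libraries, as Rbm24 was. Among the regulators themselves, Mbnl2 and Ptbp1 had the highest r (0.941), followed by Celf2 and Rbfox2 (0.94) and by Mbnl2 and Mbnl3 (0.843), and Rbm24 was closest to Rbfox2 (0.83).

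**Figure D5:**
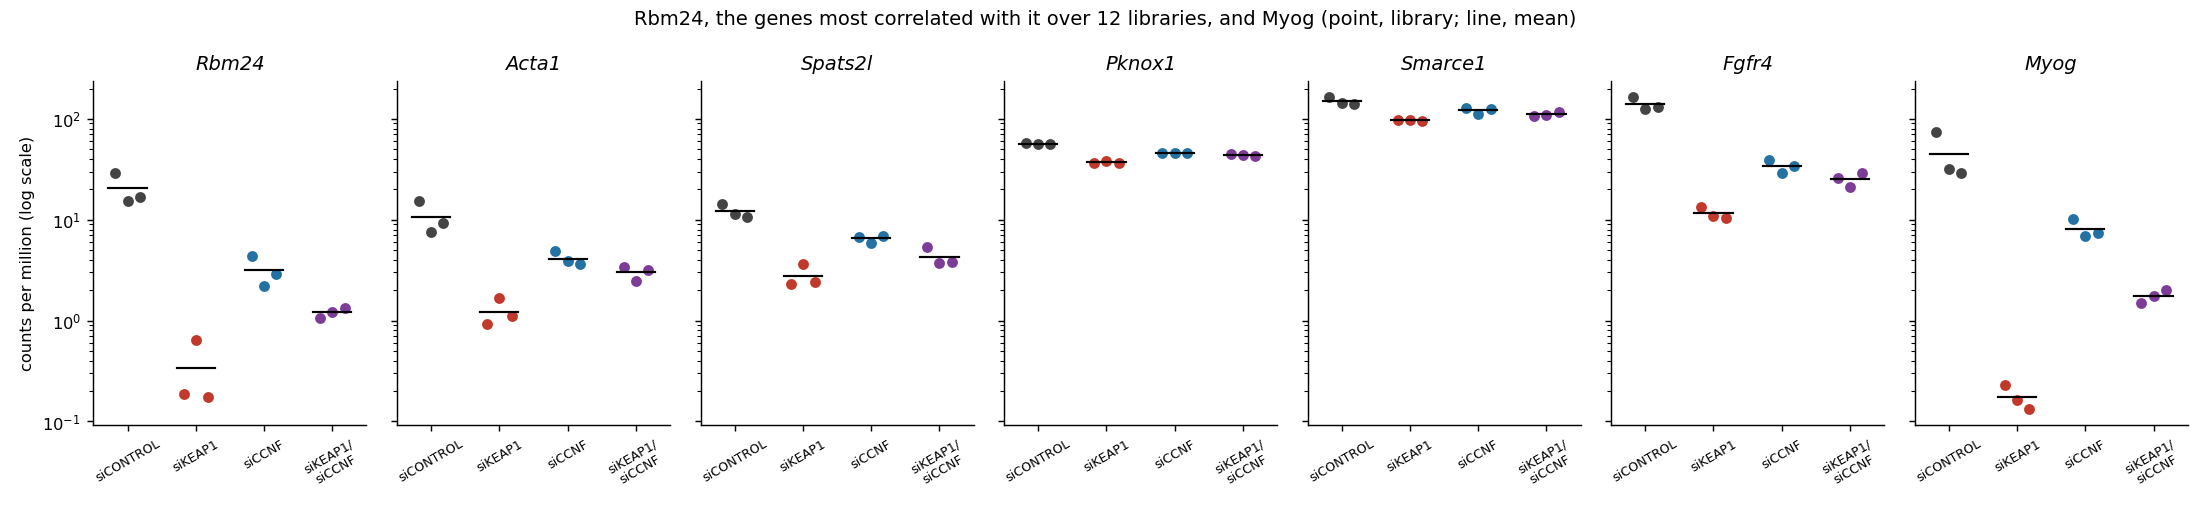
CPM (log axis) of Rbm24, of the 5 genes most correlated with it and of Myog in the 4 groups, with a point for each library and a line for the mean of 3. By group mean all 7 genes are highest in siCONTROL and lowest in siKEAP1, with siCCNF above siKEAP1/siCCNF, but Pknox1 and Smarce1 span a much narrower range than Rbm24 and Myog.

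Close relatives of the regulators were mostly silent in these cells. Of 12 relatives (CELF, RBFOX, PTBP and ELAVL genes and Rbm20), 5 were tested and the other 7 had at most 9 counts in any library. After siCCNF 2 of the 5 rose (Ptbp2 and Rbm20) and 1 fell (Celf4, 7.87 against 16.3 CPM), where 22.5% of all genes rose and 25.5% fell. Rbm20 was close to the threshold (edgeR's adjusted p = 0.0468). In siKEAP1/siCCNF against siCCNF edgeR's quasi-likelihood test called 0, with 1 lower by unadjusted p under 0.05 and 0 called by DESeq2. Of 34 other splicing regulators, not all of them tied to muscle, 29 were tested. After siCCNF 3 of them rose and 19 fell, with a median of -0.29 on the log2 scale against 0.013 for all genes, of which 22.5% rose and 25.5% fell. After siKEAP1/siCCNF against siCONTROL 5 of the 29 rose and 18 fell, where 20.6% and 23.6% of all genes did. Against siKEAP1, 9 rose and 4 fell in the double depletion, where 24.1% and 26.9% of all genes did. With siKEAP1/siCCNF against siCCNF 1 rose and 28 did not pass the test, where 3.00% of all genes rose. The riser was Rbm47, an RNA-binding protein known for epithelial splicing and RNA editing, at 7.07 ± 0.705 CPM against 4.09 ± 0.305 CPM (log2 difference 0.79, SE 0.16, edgeR's adjusted p = 0.0125) and at 0.786 CPM in siCONTROL.

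Of 21 factors of mRNA stability and translation, 19 were tested, and after siCCNF 8 rose and 3 fell, where 22.5% of all genes rose and 25.5% fell. Against siCCNF, 1 of the 19 rose in the double depletion, where 3.00% of all genes did. This was Pcbp2, a poly(C)-binding protein (281 ± 3.61 against 246 ± 6.65 CPM, log2 difference 0.19, edgeR's adjusted p = 0.0484). Of 28 tested genes whose transcripts these regulators are known to splice in muscle, 7 rose and 15 fell after siCCNF, beside the same 22.5% and 25.5% of all genes. Against siCCNF, the double depletion had 0 rises and 2 falls, where 3.00% of all genes rose and 2.19% fell. Ttn, which encodes titin, the spring of the sarcomere, fell by 1.67 (1.51 ± 0.213 against 4.83 ± 0.0221 CPM, SE 0.18, edgeR's adjusted p = 0.000117). Pdlim3, a Z-disc protein named after its values were seen, fell by 1.11 (edgeR's adjusted p = 0.0306).

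Of 10 tested transcripts that the regulators are known to bind or stabilise, 1 rose and 5 fell after siCCNF (22.5% and 25.5% of all genes). Hmgb1, whose transcript ELAVL1 is known to bind in myoblasts, rose in siKEAP1/siCCNF against siCCNF by 0.27 (85.0 ± 3.93 against 70.4 ± 3.78 CPM, edgeR's adjusted p = 0.0483), and Myog, a known target of RBM24, fell by 2.21 (1.76 ± 0.257 against 8.12 ± 1.78 CPM, SE 0.36, edgeR's adjusted p = 0.0034). Myog lay at 45.3 CPM in siCONTROL and at 0.175 CPM after siKEAP1. Of 18 tested genes of terminal muscle differentiation, a list that also holds Myog, 0 rose and 15 fell after siCCNF (median -1.52), where 25.5% of all genes fell. Des, Cdh15 and Chrna1, given above as myoblast markers, are on this list too and were among the falls. In the double depletion against siCCNF 0 rose and 5 fell (median -0.77 against 0.0032 for all genes), where 2.19% of all genes fell. Beside Myog, these were the low genes Mymk, Actc1, Myh3 and Myl1, named after their values were seen, which fell by 1.91 to 2.22 with means of at most 4.12 CPM in siCCNF. In siKEAP1/siCCNF against siKEAP1, 6 of the 18 rose and 3 fell, where 24.1% and 26.9% of all genes did. Over all 6 lists, 10 genes were called in siKEAP1/siCCNF against siCCNF, where 5.19% of all genes were. Without the 2 libraries that stood apart, 22 were called, where the share of all genes rose to 14.1%.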

How the data were processed

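C2C12 cells were harvested 48 h after transfection, and RNA of 3 biological replicates per group was sequenced. Novogene prepared, sequenced and analysed the libraries. The submitters' processing notes name HISAT2 and GRCm39, but start and end of 98.3% of 54409 matched genes, and of all 10 regulators, are those of GENCODE M21 on GRCm38. Versions, the counting tool and the treatment of reads shared between paralogs are not given in the sources used here. The authors deposited, per library, the raw read count of each gene, and FPKM values scaled by gene length. Per-library columns left out numbered 0. Columns of the authors' own comparisons (normalized means, log2 fold changes and p-values of each depletion against control) hold their findings and were not used.

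The tests used edgeR 4.0.16 under R 4.3.3. After filterByExpr (minimum count 10) and TMM scaling, 1 quasi-likelihood fit of the 4 group means covered the 12 libraries. The Benjamini-Hochberg adjustment ran over 15122 genes, and a gene was called at an adjusted p under 0.05. The standard error (SE) is that of the log2 fold change implied by the test. CPM are counts scaled to the library total multiplied by its TMM factor. The log2 CPM had a prior count of 2, and FPKM served levels between genes and 2 alternatives. The code was tested on simulated data. P-values measure the spread between these cultures of a single cell line.

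Replicate numbers are shared by the groups in the labels. Same-numbered libraries did not deviate together (4 of 18 pairs had a correlation above 0.1, range -0.268 to 0.204), so they were not taken as pairs. The most similar libraries of a group (siCONTROL replicates 2 and 3) still differed by more than counting noise (chi-square per gene 2.84), so none was a repeat of another.

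The regulators and the 6 lists were chosen with earlier results of these data known. Genes named are the 10 regulators, Keap1 and Ccnf, the 5 genes most correlated with Rbm24 at a mean of at least 1 log2 CPM, cell type markers (1 of those listed is not reported here), and for each list up to 3 rises and 3 falls past an adjusted p of 0.05 in siKEAP1/siCCNF against siCCNF at a mean of at least 1 log2 CPM. Genes outside this rule are given as named after their values were seen, or stand beside Rbm24 in rank or for a family relative. Alternatives were DESeq2 1.42.0, total library sizes, no filter, a replicate block, limma 3.58.1 on log2(FPKM + 1) and log2(FPKM + 0.1), the compared groups only, removal of a gene length trend by splines with 5 degrees of freedom, and omission of each library.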

Additional observations from a re-analysis of the deposited data

Results flagged for a closer look

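The effect of siCCNF on Rbm24 had opposite signs without and with siKEAP1. Every siCCNF library lay below every siCONTROL library (log2 difference -2.70), and every siKEAP1/siCCNF library lay above every siKEAP1 library (1.79). The second value was 2.71 without siKEAP1 replicate 2 and 0.296 with limma on log2(FPKM + 1). Elavl1 showed the same kind of contrast on a smaller scale, with differences of -0.155 and 0.298. Neither difference between the effects was tested, because the test contains the siKEAP1 against siCONTROL contrast that chose the set. Rbm24 was chosen for being high in siCONTROL and low after siKEAP1, and that choice favours these opposite signs. The share of all genes with such a pattern was not computed, so nothing is read from it. Keap1 itself was at 24.1 CPM in the double depletion against 12.6 CPM after siKEAP1 alone, and its part in both contrasts was not tested.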

How the results depend on the processing

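Of 1092 fold changes of the regulators and targeted genes recomputed under 21 alternatives, 1016 kept their side of the threshold or moved by less than the spread between replicates, 31 lost a call, 26 gained one, 19 untested values moved further and 0 changed sign while called. The fall of Rbm24 in siKEAP1/siCCNF against siCCNF lost its call with limma on log2(FPKM + 1) (-0.481) and log2(FPKM + 0.1) (-1.12). The regulators called there numbered 0, beside 4.77% and 4.88% of all genes. The fall ranged from -1.58 to -1.09 when each library was left out. With these omissions 0 to 1 regulators were called, beside 2.36% to 9.03% of all genes. Regulators called after siCCNF ranged from 2 to 6 when each library was left out, beside 40.9% to 49.3% of all genes. Without siCONTROL replicate 1 and siKEAP1/siCCNF replicate 3 together, 8 were called after siCCNF, beside 54.6% of all genes. In siKEAP1/siCCNF against siCCNF, 4 regulators and 22 list genes were then called, beside 14.1% of all genes. With only the compared groups in the fit, 3 regulators were called after siKEAP1/siCCNF against siCONTROL, beside 36.3% of all genes. The causes of these changes were not tested.

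With the replicate block 4 regulators were called after siCCNF, beside 46.8% of all genes. In the double depletion 5 each were called against siCONTROL and against siKEAP1, beside 43% and 50% of all genes. Against siCCNF 1 was called (Rbm24, -1.34), beside 4.25% of all genes, and 9 list genes were called against 10. Of 36 best matches between libraries, 15 were to the same replicate number, and 0 libraries matched their own number in every group. The depth limits Rbm24 most, since 2 of 3 siKEAP1 libraries hold 4 counts of it, so its level there rests on few reads. Both libraries that stood apart deviate with gene length, and 7 of the 10 regulators are long. Without both, Mbnl1 was also called lower in siKEAP1/siCCNF against siCONTROL (-0.22, edgeR's adjusted p = 0.000985). Removing a gene length trend gave Mbnl1, Celf2 and Rbfox2 calls after siCCNF and ended that of Elavl1. After siCCNF, 51.9% of all genes were then called. In siKEAP1/siCCNF against siKEAP1, where it also gave calls of Celf2 and Rbfox2, 56.3% of all genes were called. The median of all genes in that comparison was then 0.093, against 0.0013 with the test as described.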
